A study of Mus musculus with 8 samples.

Results

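Sterols and long-chain fatty acids are built from cytosolic acetyl-CoA by 2 branching enzyme series, and the genes of both are driven by the membrane-bound factors Srebf1 and Srebf2. When sterols are scarce, Scap escorts the SREBP precursors to the Golgi, where they are cleaved and the freed factor binds promoters together with NF-Y and Sp1. When sterols are plentiful, Insig1 and Insig2 hold Scap in the endoplasmic reticulum. Growing tumor cells draw on both products for new membrane. FOXA1 is a forkhead factor that can bind closed chromatin, and HNF4G is a nuclear receptor of the HNF4 family. Chromatin contacts held at sites of these factors were read here at 31 mouse genes of the 2 pathways and their regulators, out of 21755 protein-coding genes on the same chromosomes.

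The contacts came from Hi-ChIP, in which crosslinked chromatin is cut, joined to its neighbors in space and enriched with an antibody, so that a loop is a pair of anchors that the caller listed as joined by read pairs. Antibodies against FOXA1 (ab5089) and HNF4G (HPA005438) were used in a tumor line and a liver metastasis line of KPC mice, which carry a genetically engineered pancreatic cancer. All 8 samples were untreated, carried the genotype label WT and were grown in DMEM with 10% FBS, with 2 samples per group, but each group had 1 loop list covering both. Each context was 1 cell line, so line and context cannot be told apart, and a single list a group leaves no spread against which the groups could be tested. Loop lists do not measure expression, so the labelled cell type could not be checked against marker genes. The lists held 104136 loops for FOXA1 in the tumor line, 125623 for FOXA1 in liver mets, 76323 for HNF4G in the tumor line and 78098 for HNF4G in liver mets. Each loop carries a value read as −log10 of an adjusted p, and 30.9% to 39.3% of the loops at the genes described here had a value that corresponds to a p above 0.05, as did 41.5% to 43.6% of all loops, so a listed loop is not by itself a significant one. Read pairs per loop were not used here, so depth is unknown and all intervals below cover counting error over loops, which share anchors and are not independent.

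A gene was given a loop when either anchor lay within 2 kb of any of its annotated starts (mm10). Of the 31 genes, 28 had such an anchor (90.3%), against 10774 of 21724 other coding genes (49.6%). The 3 without were Hmgcs1, whose enzyme makes the HMG-CoA that enters the sterol branch, Scap, and Msmo1, a C4 methyl oxidase of late sterol synthesis. The nearest anchor lay 71.9 kb from a start of Hmgcs1, 2.29 kb from Scap and 3.51 kb from Msmo1, so Scap lay just outside the limit. The 28 genes held 36 of the 11729 anchors at coding starts. Their loops numbered 297 and 349 in the FOXA1 tumor and liver mets lists and 259 and 250 in the HNF4G lists, in that order, and 766 distinct loops in all.

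Promoter sequences are given first, because they set the textbook elements of sterol-regulated genes beside the words of the 2 precipitated factors. RefSeq start windows (GRCm38.p6, 250 bases before to 50 after each start) were found for 24 of the 31 genes. The NF-Y box, spelled CCAAT and searched on both strands, was held by 20 of these 24 genes (83.3%), against 42.0% of 16498 other coding genes. The Sp1 box GGGCGG was held by 18 of the 24, against 51.0% of the others. The forkhead words TGTTTAC and TATTTAC were found in 1 gene, Elovl6 (4.17%, against 6.31%), and the HNF4 word CAAAGTCCA in none of the 24 (0.552% of other coding genes). The SREBP element TCACNCCAC was found in 1, Hmgcs1 (4.17%, against 1.41%). A match is a string of letters and not a bound site, and other spellings of each element were not searched. The 250 bases before the start of 4 genes, read 5′ to 3′ on the gene's strand, show the NF-Y boxes in capitals. They were chosen because Fasn and Srebf1 had the most loops, Mvk had 5 boxes in 250 bases, and Hmgcs1 had no anchor at its start. Srebf1 has other start windows that are not shown, with 0 NF-Y boxes at chr11:60220628-60220877 and 1 at chr11:60222582-60222831. In Hmgcs1 the SREBP element is also in capitals, and the capitals in Fasn include a run in which a box on each strand overlaps.
Fasn, chr11:120824548-120824797, minus strand: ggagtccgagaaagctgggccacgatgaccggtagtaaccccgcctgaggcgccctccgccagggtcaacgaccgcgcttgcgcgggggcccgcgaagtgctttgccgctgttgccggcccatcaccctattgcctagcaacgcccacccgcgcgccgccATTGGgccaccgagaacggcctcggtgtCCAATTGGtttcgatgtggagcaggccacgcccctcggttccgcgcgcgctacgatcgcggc
Srebf1, chr11:60210472-60210721, minus strand: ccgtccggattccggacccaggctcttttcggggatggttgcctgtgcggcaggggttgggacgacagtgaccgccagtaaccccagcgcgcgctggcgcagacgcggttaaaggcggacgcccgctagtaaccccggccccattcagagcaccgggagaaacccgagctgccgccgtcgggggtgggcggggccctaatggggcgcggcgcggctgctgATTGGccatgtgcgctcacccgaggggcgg
Mvk, chr5:114444019-114444268, plus strand: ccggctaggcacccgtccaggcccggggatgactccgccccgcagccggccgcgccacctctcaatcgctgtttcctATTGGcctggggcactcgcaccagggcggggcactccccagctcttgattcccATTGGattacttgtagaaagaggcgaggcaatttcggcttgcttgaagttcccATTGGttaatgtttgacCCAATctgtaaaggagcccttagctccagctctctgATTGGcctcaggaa
Hmgcs1, chr13:119690101-119690350, plus strand: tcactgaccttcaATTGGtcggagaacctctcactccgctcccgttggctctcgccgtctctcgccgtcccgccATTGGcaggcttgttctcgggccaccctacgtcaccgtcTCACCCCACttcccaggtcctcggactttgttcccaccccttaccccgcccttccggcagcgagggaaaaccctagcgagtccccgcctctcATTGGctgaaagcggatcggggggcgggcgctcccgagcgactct

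The whole anchors were searched as well, since they are wider than a promoter (median 2696 bases at these genes). Forkhead words occurred at 2.31 per 10 kb in the 36 anchors, 2.71 in 11693 anchors at other coding starts, 3.16 in the 311 distal partners of these genes' loops and 3.94 in 18502 other anchors without a coding start. Both groups of distal anchors thus held more forkhead words per length than the start anchors of their kind. Elovl6, with 3 words, and Scd1, Insig2, Fdft1 and Stard4, with 2 each, held the most in any 1 anchor, and the Scd2 anchor held 0. The HNF4 word was present only in the Fads2 anchor (2.78% of the 36 anchors, against 4.37% at other coding starts). The SREBP element was in anchors of Srebf1, Fasn and Acss2 (8.33%, against 11.4% at other coding starts). Below are the forkhead words of Scd1 (within the gene, in no annotated exon), the HNF4 word of Fads2 (within the gene, in no annotated exon) and the SREBP element in the Fasn anchor (in an exon and its UTR), each in capitals with 10 bases on either side.
Scd1, chr19:44407039-44407065, plus strand: ggaaaacagaTATTTACattacgattc
Scd1, chr19:44407145-44407171, minus strand: tgcgatccttTATTTACtacagttttt
Fads2, chr19:10100140-10100168, minus strand: cactccacatCAAAGTCCAggatgctgac
Fasn, chr11:120824237-120824265, minus strand: cgcgcgggcaTCACCCCACcggcggcggc

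The genes differed widely in how many loops they had. The median of the 28 genes was 6 and 8 loops in the FOXA1 tumor and liver mets lists and 5 and 6 in the HNF4G lists, beside 6, 7, 5 and 5 for other coding genes with an anchor. The genes as a group therefore sat at the level of other anchored promoters, and what set single genes apart was a long upper tail. Fasn, Srebf1, Fads2, Fdps, Scd2 and Scd1 together held 55.6% of the sum of loops over genes and lists, and Fasn alone held 20.4%. The number of loops a start can have is bounded by the anchors around it. The median gene had 113 candidate pairs within 2 Mb, against 88 for other anchored coding genes, and the median share of these pairs that was listed was 7.30%, 8.49%, 6.88% and 7.01%, against 7.53%, 8.70%, 5.58% and 5.66%.

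**Figure D1:**
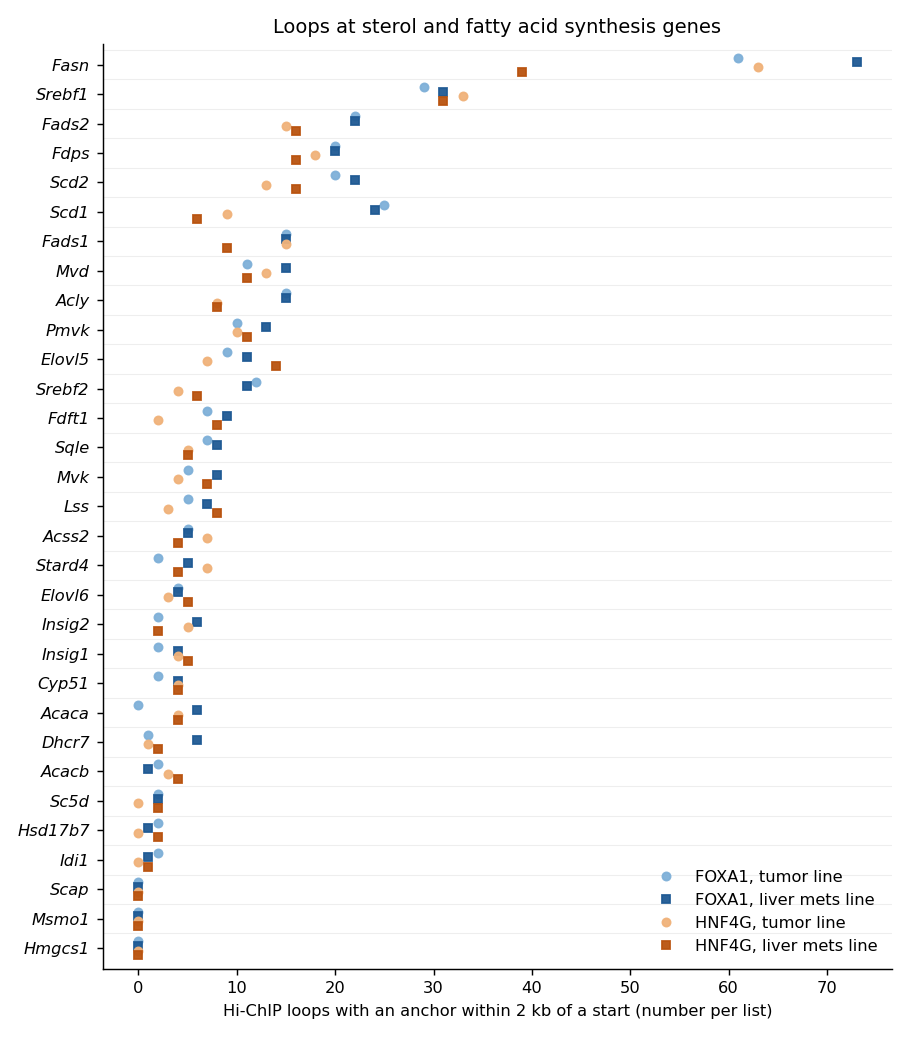
Loops with an anchor within 2 kb of a start (x axis, number per list) for each of the 31 genes (y axis, ordered by the sum), with blue for FOXA1, orange for HNF4G, circles for the tumor line and squares for the liver mets line. Fasn lies between 39 and 73 in all 4 lists, above every other gene, and Hmgcs1, Msmo1 and Scap lie at 0.

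Among the regulators, Srebf1, the SREBP of fatty acid synthesis and partly of sterols, led with 29 FOXA1 loops in the tumor line and 31 in liver mets, and with 33 and 31 HNF4G loops. The 4 values are nearly level, and the sum of 124 was higher than that of 96.0% of anchored coding genes. Srebf1 had 378 candidate pairs within 2 Mb, against a median of 88 at other anchored coding genes. Of its pairs 7.67%, 8.20%, 8.73% and 8.20% were listed, beside medians of 7.53%, 8.70%, 5.58% and 5.66%. Its loops came from 4 anchors over its alternative starts (chr11:60199089-60222581, minus strand), and the anchor at chr11:60203527-60212128, which is 8602 bases wide and covers the start printed above, carried 13 and 15 FOXA1 and 13 and 15 HNF4G loops. Srebf2, the SREBP of the sterol branch, had 12 and 11 FOXA1 loops and 4 and 6 HNF4G loops. Once scaled to all loops at coding starts, of which the FOXA1 lists hold more, FOXA1 over HNF4G at Srebf2 was 2.36 (0.715 to 10.0) in the tumor line and 1.19 (0.404 to 3.93) in liver mets. Insig1 had 2 and 4 FOXA1 and 4 and 5 HNF4G loops, and Insig2 had 2 and 6 and then 5 and 2.

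In the mevalonate steps, Fdps, which joins isoprene units to farnesyl diphosphate, had 20 and 20 FOXA1 loops and 18 and 16 HNF4G loops. Mvd, the mevalonate diphosphate decarboxylase, had 11 and 15 FOXA1 and 13 and 11 HNF4G loops, and Pmvk, the phosphomevalonate kinase, had 10 and 13 and then 10 and 11. These 3 genes varied little between lists. Mvk, the mevalonate kinase, had 5 and 8 FOXA1 loops and 4 and 7 HNF4G loops, from an anchor it shares with the start of Mmab. Idi1, the isomerase, had at most 2 loops in any list.

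The genes from squalene to cholesterol had at most 9 loops in any list. The sums of Fdft1, Sqle and Lss were higher than those of 53.9%, 52.2% and 49.1% of anchored coding genes. Fdft1, the squalene synthase, had 7 and 9 FOXA1 loops and 2 and 8 HNF4G loops. Lss, the lanosterol synthase, had 5 and 7 FOXA1 loops and 3 and 8 HNF4G loops. Both were lowest with HNF4G in the tumor line. Sqle, the squalene epoxidase, had 7 and 8 and then 5 and 5. Cyp51, Dhcr7, Sc5d and Hsd17b7 lay between 0 and 6 in every list, and Sc5d and Hsd17b7 were at 0 only in the HNF4G tumor list.

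In fatty acid synthesis, Fasn, the multifunctional synthase, had 61 FOXA1 loops in the tumor line and 73 in liver mets, and 63 HNF4G loops in the tumor line and 39 in liver mets. Its sum of 236 was higher than that of 99.5% of anchored coding genes. Fasn had 3 anchors and 528 candidate pairs, against a median of 88 pairs at other anchored coding genes. Of its pairs 11.6%, 13.8%, 11.9% and 7.39% were listed, beside medians of 7.53%, 8.70%, 5.58% and 5.66%. Acly, which splits citrate to acetyl-CoA, had 15 and 15 FOXA1 loops and 8 and 8 HNF4G loops. Scaled in the same way, FOXA1 over HNF4G at Acly was 1.48 (0.587 to 4.02) and 1.22 (0.485 to 3.32), and both intervals include 1. Acss2, which makes acetyl-CoA from acetate, had 5 and 5 and then 7 and 4, from an anchor shared with Ggt7. The carboxylase genes Acaca and Acacb lay between 0 and 6 in every list.

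The desaturases came in neighboring pairs. Fads2, the delta-6 desaturase, had 22 and 22 FOXA1 loops and 15 and 16 HNF4G loops, and Fads1, the delta-5 desaturase 81.1 kb away, had 15 and 15 and then 15 and 9. Scd2 had 20 and 22 FOXA1 loops and 13 and 16 HNF4G loops, and Scd1, the stearoyl-CoA desaturase 114 kb away, had 25 and 24 and then 9 and 6. The FOXA1 counts of Scd1 stood above its HNF4G counts in both lines. Elovl5, an elongase of polyunsaturated chains, had 9 and 11 FOXA1 loops and 7 and 14 HNF4G loops, and Elovl6 had between 3 and 5 in every list. Stard4, a sterol transfer protein, had 2 and 5 FOXA1 and 7 and 4 HNF4G loops.

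The study asked how looping at the 2 factors differs between tumor and liver mets. For all loops of the 28 genes together, the FOXA1 number in liver mets over tumor was 1.18, and the same ratio at other coding starts was 1.18, which gives a ratio of the 2 ratios of 0.996 (95% Woolf interval 0.853 to 1.16). For HNF4G, 0.965 against 0.976 gave 0.990 (0.831 to 1.18). FOXA1 over HNF4G gave 0.901 (0.763 to 1.07) in the tumor line and 0.908 (0.771 to 1.07) in liver mets. All 4 intervals include 1, so no difference from other coding starts was detectable at this number of loops, and differences within these bounds could not have been seen. With all loops of a list as the denominator, the intervals of the other 3 still include 1, but FOXA1 over HNF4G in the tumor line was 0.840 (0.709 to 0.997), which leaves out 1.

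By step of the pathway, 24 such intervals were computed and 2 left out 1, both for HNF4G between lines. The genes from squalene to cholesterol had 15 HNF4G loops in the tumor line and 31 in liver mets (2.12, 1.14 to 3.93, relative to other coding starts). Leaving out Fdft1 gave 1.81 (0.919 to 3.58), and leaving out Lss gave 1.96 (0.978 to 3.95), and both intervals include 1. The other genes of this group were not left out in turn. Fatty acid synthesis went the other way, from 85 to 59 HNF4G loops (0.712, 0.510 to 0.992), and this was Fasn: without it the numbers were 22 and 20 (0.932, 0.509 to 1.71). For FOXA1 the same groups gave 1.21 (0.731 to 1.99) and 1.02 (0.763 to 1.37).

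Single genes were called when their ratio, scaled to all loops at coding starts with 1 added to each count, was at least 1.5 or at most 1/1.5, among genes with 10 or more loops in the 2 lists. For FOXA1 between lines, 0 of 17 genes were called, where 10.5% of all 6876 coding genes met the rule for a higher number in liver mets and 13.1% for a lower one. The highest was Mvk (1.27) and the lowest Srebf2 (0.783). All 17 genes thus stayed within the fold limit for FOXA1.

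For HNF4G between lines, 8 of 18 genes were called, 4 higher in liver mets (background 12.9% of 5439 genes) and 4 lower (13.9%). The higher genes were Fdft1 (3.08), Lss (2.31), Elovl5 (1.92) and Mvk (1.64), and 3 of the 4 have fewer than 10 loops in each list. The lower genes were Fasn, Fads1, Acss2 and Stard4, all at 0.641. With no added count, Fasn was at 0.635 (exact interval 0.414 to 0.961), which left out 1. Elovl5 was at 2.05 (lower bound 0.774) and Fdft1 at 4.10 (0.818 to 39.6), and the intervals of all 7 other called genes include 1. Other coding genes within 1 Mb of Fasn were at 0.932 on the same scale, those around Fdft1 at 1.25 and those around Lss at 1.30.

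Between factors, 2 genes were called higher with FOXA1 in the tumor line (background 13.8% of 6047 genes), Srebf2 and Scd1 (both 2.05), and 1 lower (15.5%), Acss2 (0.590). In liver mets 1 of 17 genes was called higher (10.5% of 6356), Scd1 (2.32), and 3 were called lower (18.1%), Elovl5 (0.520), Lss (0.578) and Srebf1 (0.651). Scd1 was the only gene called in the same direction in both lines. With no added count it stood at 2.19 (0.986 to 5.32) in the tumor line and 2.60 (1.04 to 7.78) in liver mets, while coding genes within 1 Mb were below 1 on this scale in both lines. Over all 4 comparisons, 66 such intervals were computed for single genes and 2 left out 1, those of Fasn and Scd1.

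**Figure D2:**
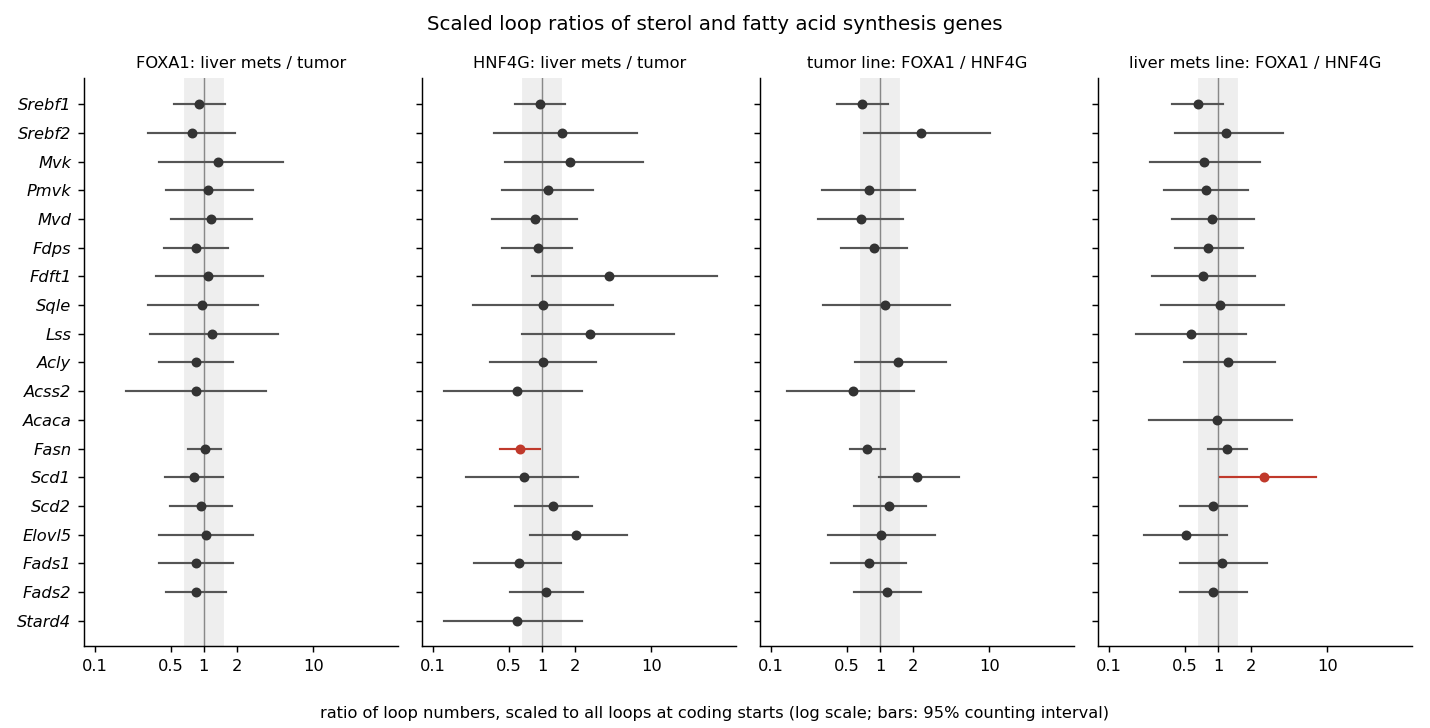
Loop number in the first list over the second, scaled to all loops at coding starts, with no added count (x axis, log scale), for genes with 10 or more loops in the 2 lists. Bars are exact 95% counting intervals, the gray band spans 1/1.5 to 1.5, and red marks intervals that leave out 1, which are Fasn for HNF4G between lines and Scd1 between factors in liver mets.

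Fasn lies on the minus strand at chr11:120805846-120824547 and had 3 anchors, the outermost over its main start and the promoter printed above. That anchor, chr11:120822698-120825955, carried 28 and 28 FOXA1 loops and 27 and 17 HNF4G loops in tumor and liver mets. The middle anchor carried 25 and 30 and then 25 and 21, and the innermost 11 and 18 and then 14 and 4. HNF4G loops were fewer in liver mets at all 3 anchors. By span, HNF4G loops under 100 kb went from 20 to 15, those of 100 to 500 kb from 32 to 18 and those beyond 500 kb from 11 to 6, while FOXA1 went from 23 to 21, 26 to 42 and 12 to 10. The middle span class held the most loops in every list and most of the change in number for both factors. HNF4G numbers were lower in liver mets in every class. These numbers are not scaled to the size of the lists. Scaled over all spans, FOXA1 in liver mets over tumor at Fasn was 1.015 (0.712 to 1.45). A ratio pooled over spans cannot show a shift between span classes. No scaled ratio was computed by class, so such a shift was not tested.

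The partners of Fasn were the dense gene neighborhood around it. Of its 143 distinct loops 85 ended at a coding start, including those between its own anchors, and 49 coding genes were reached at least once. Dcxr was reached by 14 loops counted over lists, Aspscr1 by 12, Lrrc45 and Mafg by 9 each and Dus1l and Notum by 8 each. Genes that share an anchor, such as Dcxr and Lrrc45, are credited with the same loops, so these numbers overlap. Notum encodes a secreted Wnt inhibitor and Mafg a small Maf factor. The loop from the outermost anchor to Notum, 163 kb long, was in all 4 lists. Its values were 1.48, 1.32, 1.63 and 1.71 (in the order FOXA1 tumor, FOXA1 liver mets, HNF4G tumor, HNF4G liver mets). A loop of 167 kb from the same anchor to Csnk1d, not listed for FOXA1 in liver mets, had nearly the same values, 1.48, 1.66 and 1.73. The loop of 157 kb from the middle anchor to Notum, absent from the same list, had 2.55, 2.79 and 2.99. Similar values between lists thus do not show equal contact. The number of coding genes reached was 27 and 36 with FOXA1 and 28 and 19 with HNF4G.

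**Figure D3:**
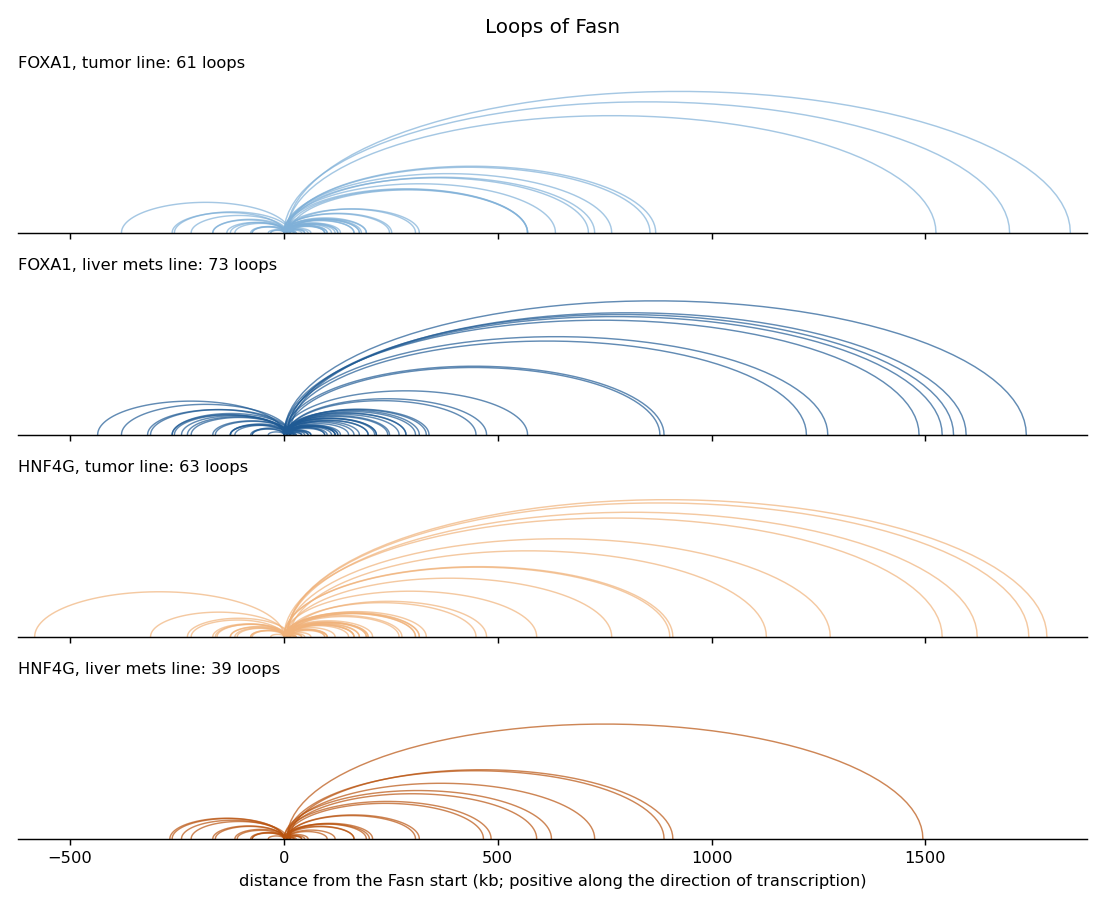
Loops of Fasn in each list, drawn as arcs from its anchor to the partner (x axis, kb from the Fasn start, positive along transcription), with arc height proportional to span on 1 scale. The lists hold 61, 73, 63 and 39 loops, and most lie within 500 kb on either side.

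Srebf1 reached 28 coding genes, and the one it reached most was Rai1, a neighboring chromatin protein gene, with 17 loops counted over lists, 4, 4, 4 and 5 in turn. A loop of 30.5 kb from the wide Srebf1 anchor to the Rai1 start was in all 4 lists, with its lowest value, 0.171, for HNF4G in the tumor line and values from 0.740 upward in the other 3. Srebf1 loops over 500 kb numbered 7 and 13 with FOXA1 and 9 and 4 with HNF4G, and those under 100 kb numbered 12 and 10 and then 8 and 15.

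Scd1 and Scd2 lie in the same surroundings. Taken over all 4 lists, 21 of the 41 partners of Scd1 and the 40 of Scd2 were common to both (51.2% and 52.5%). Within single lists 5, 7, 5 and 3 were common (FOXA1 tumor, FOXA1 liver mets, HNF4G tumor, HNF4G liver mets). These were of 25, 24, 9 and 6 partners at Scd1 and 20, 22, 13 and 16 at Scd2. Scd1 had 7 loops in both FOXA1 lists and no HNF4G list and 0 in the reverse, and Scd2 had 3 and 1. Beyond 500 kb, Scd1 had 8 and 9 FOXA1 loops and 2 and 1 HNF4G loops, and Scd2 had much the same, 6 and 7 and then 3 and 1. Set against each other, FOXA1 over HNF4G was 1.81 times as high at Scd1 as at Scd2 in the tumor line (0.642 to 5.08) and 2.91 times in liver mets (0.966 to 8.76), and both intervals include 1, so no difference between the genes by factor was detectable. The genes were joined to each other by 1 loop of 113 kb, listed only with FOXA1 in the tumor line at a value of 1.02. Scd1 kept 2 loops in all 4 lists, to sites 18.3 and 27.6 kb away in no annotated gene, and the longer had its highest value, 3.66, with FOXA1 in liver mets.

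**Figure D4:**
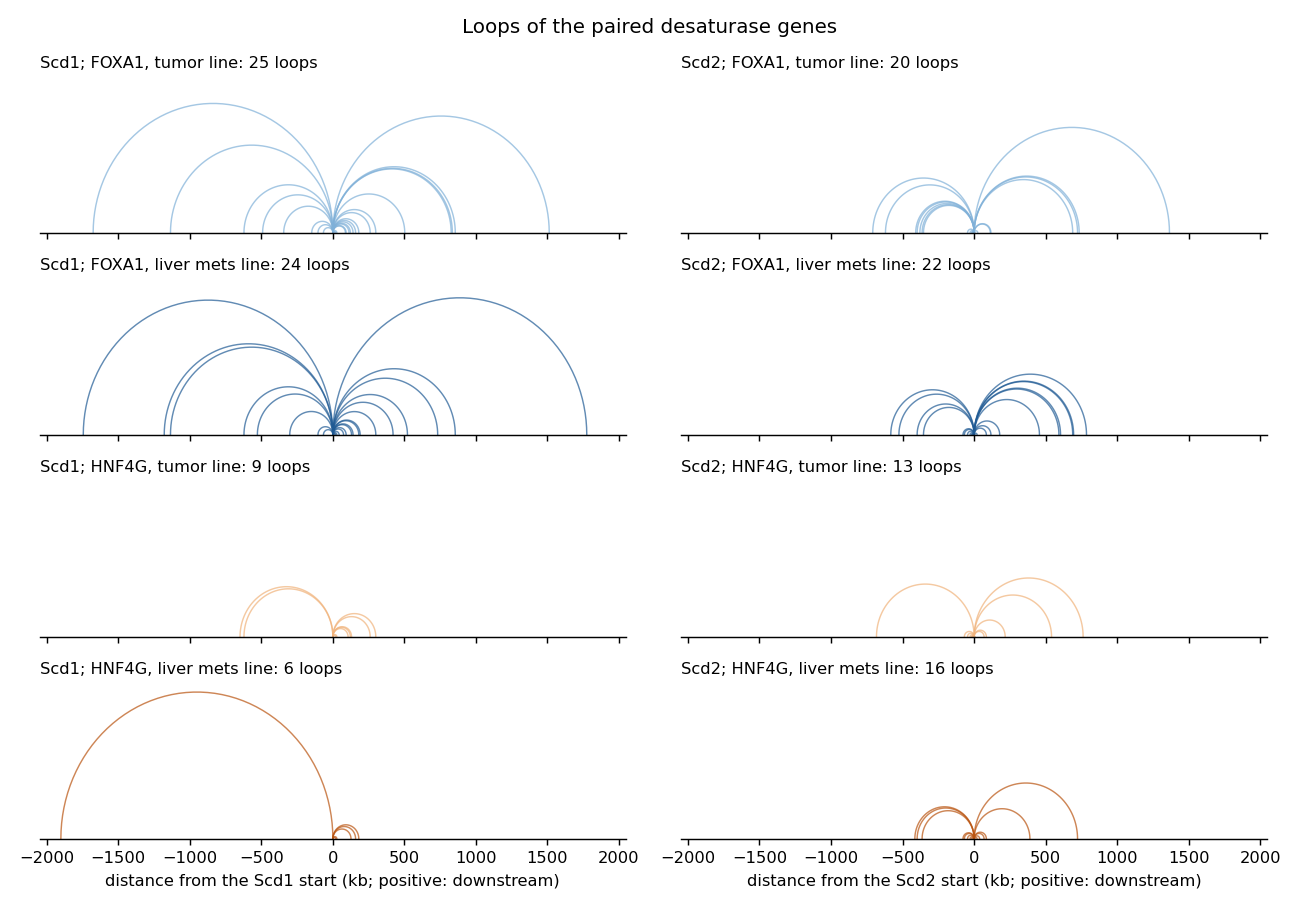
Loops of Scd1 (left) and Scd2 (right) in each list as arcs, on common axes (x, kb from each gene's start, positive downstream; height proportional to span). Scd1 has 25, 24, 9 and 6 loops and Scd2 has 20, 22, 13 and 16.

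Taken over all 4 lists, Fads1 and Fads2 had 23 partners in common (67.6% of the 34 of Fads1, with 46 at Fads2). Within single lists, in the same order, they had 7, 11, 4 and 4. A loop of 81.3 kb joined them in both tumor lists, with values of 0.889 for FOXA1 and 0.517 for HNF4G, and in neither liver mets list. From Fads2, a loop of 102 kb to the start of Fen1 and Tmem258 was in all 4 lists, with values of 2.40, 0.0889, 3.14 and 1.27, and a loop of 61.8 kb to the related desaturase Fads3 had values of 2.08, 0.0888, 1.03 and 0.146. Both values were lower in the FOXA1 liver mets list than in either tumor list, and that of the Fads3 loop was low in both liver mets lists. Such values are not loop strength and depend on the depth of a list. Of other neighboring genes, Fdps and Pmvk, 353 kb apart, shared 14 partners over all lists (33.3% of 42 and 53.8% of 26). Within single lists they shared 4, 5, 0 and 2. Mvk and Acacb, 298 kb apart, shared 4 over all lists (21.1% of 19, with 8 at Acacb). Within single lists they shared 0, 1, 1 and 2. No other loop joined 2 different genes of the 31, and the remaining 10 joined starts of the same gene.

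The loops with the highest values summed over the 4 lists were as follows. This ranking favors loops in several lists. For example, a loop of Fdps to Zbtb7b fell outside it with 5.15 for FOXA1 in liver mets alone. Insig1 was joined over 31.6 kb to the start of the noncoding gene Gm43611 in all 4 lists (2.58, 5.40, 2.14 and 1.42), the largest sum of any loop of these genes. Insig2 was joined over 722 kb to En1, a homeobox gene, with 6.09 for FOXA1 in liver mets and 3.92 for HNF4G in the tumor line, and the loop was not in the other 2 lists. A loop of Elovl5 into a noncoding gene 104 kb away was in 3 lists (2.74, 5.03 and 2.22, absent for FOXA1 in liver mets). Fdps was joined over 128 kb to the start of Mtx1, Muc1 and Thbs3, of which Muc1 encodes an epithelial mucin, with 5.47 and 0.985 for FOXA1 and 2.66 for HNF4G in liver mets. Sqle was joined over 234 kb to Mtss1, with its highest value of 4.61 for FOXA1 in liver mets and none for FOXA1 in the tumor line. The remaining loops of the 10 with the highest summed values were those of Fasn between its own anchors (6.84 kb), to Notum (157 kb, from the middle anchor), to Mafg (192 kb) and to a site 262 kb away in no gene, and that of Fdps to Rusc1 (13.1 kb). As a whole, values of 2 or more made up 8.08%, 9.74%, 8.49% and 8.40% of the genes' loops, beside 8.31%, 9.32%, 8.44% and 7.99% at other coding starts.

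A larger share of these genes' loops spanned 100 kb or more than at other coding starts. Those of 100 kb or more made up 67.7% and 68.5% of FOXA1 loops and 68.3% and 62.8% of HNF4G loops, against 60.9%, 64.3%, 59.7% and 56.0% at other coding starts, where each loop was entered once from each coding end. The differences were 6.78 points (95% Newcombe interval 1.25 to 11.9), 4.19 (−0.872 to 8.85), 8.67 (2.76 to 14) and 6.85 (0.696 to 12.6), so that 3 of 4 intervals left out 0. Leaving out Fasn gave 8.17, 3.46, 8.69 and 7.08 points. These shares pool loops over genes. The median gene had 113 candidate pairs within 2 Mb, against 88 for other anchored coding genes. The anchors available at each span were not compared, so whether they account for the longer loops was not tested. Median spans were 163, 181, 169 and 149 kb, against 152, 176, 147 and 126 kb. Loops over 1 Mb did not follow in the FOXA1 lists, where they made up 8.42% and 8.60% against 8.69% and 10.2%, and made up 10.8% and 11.2% against 8.81% and 7.89% in the HNF4G lists.

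The far anchor lay at a coding start in 49.8%, 51.6%, 51.0% and 44.0% of loops, against 50.8%, 49.6%, 54.3% and 52.5%. With all genes in, the HNF4G liver mets list was the only one whose difference had an interval that left out 0 (−8.48 points, −14.5 to −2.27), with 29.6% of partners inside gene bodies against 23.8%. Without Fasn the differences were −3.36 (−9.65 to 3.01), −1.76 (−7.59 to 4.13), −7.32 (−14.2 to −0.331) and −9.82 points (−16.3 to −3.07), so that both HNF4G intervals left out 0 and the sign in the FOXA1 liver mets list turned from its 1.99 with all genes. The median of this share over genes was the same for these genes and for other coding genes in each list.

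**Figure D5:**
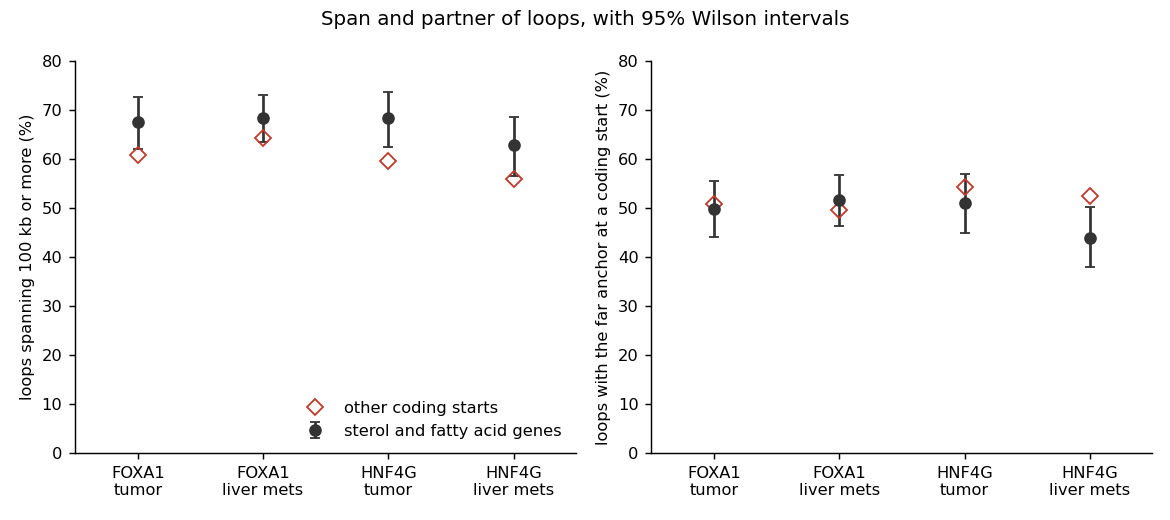
Share of loops spanning 100 kb or more (left) and share with the far anchor at a coding start (right), in percent, for the sterol and fatty acid genes (black points with 95% Wilson intervals) and other coding starts (red diamonds), by list. The black points lie above the diamonds in all 4 lists on the left, and on the right below the diamond in the tumor lists and HNF4G liver mets list, with the widest gap (44.0% against 52.5%) in the last.

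Most loops were in a single list. Of the 766 distinct loops 520 were in 1 list (67.9%, against 65.5% at other coding starts) and 38 in all 4 (4.96%, against 5.61%). Loops in all 4 lists were short, with a median span of 31.1 kb, and those in 1 list had a median of 413 kb. Between lines, 115 FOXA1 loops were shared (32.9% of the liver mets list and 38.7% of the tumor list) and 80 HNF4G loops (32.0% and 30.9%), close to 34.3% and 40.1% and to 34.7% and 33.5% at other coding starts. Between factors, 94 were shared in the tumor line (31.6% of FOXA1 and 36.3% of HNF4G) and 101 in liver mets (28.9% and 40.4%), beside 30.5% and 37.9% and then 28.8% and 43.4% at other coding starts.

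Of 27 further genes of the pathway, 20 had an anchor. Among 10 other sterol genes 7 had an anchor, and 3 of the 5 with enough HNF4G loops were called higher in liver mets and none lower, where 12.9% and 13.9% of all coding genes tested met the rule. They were Tm7sf2, a sterol reductase (18 and 33 loops, 1.83), Soat1, which esterifies cholesterol (6 and 12, 1.90), and Mbtps1, the protease that cleaves SREBP (4 and 7, 1.64). With no added count the exact intervals were 1.03 to 3.54 for Tm7sf2, 0.712 to 6.66 for Soat1 and 0.456 to 8.36 for Mbtps1, so that those of Soat1 and Mbtps1 include 1. With FOXA1 these 3 had 34 and 34, 15 and 22, and 6 and 5 loops, and none of 5 tested was called. Of 12 genes of fatty acid supply and use 10 had an anchor, 0 of 5 were called with HNF4G between lines, and with FOXA1 Gpam was called higher (4 and 11, 2.04) and Elovl1 lower (10 and 5, 0.463) among 8, with intervals that include 1 (0.691 to 10.0 and 0.114 to 1.36). Of 5 genes of sterol efflux 3 had an anchor, and only Nr1h2, a sterol-sensing nuclear receptor, had enough HNF4G loops to be tested. It was called higher in liver mets (4 and 7, 1.64), with an interval that includes 1 (0.456 to 8.36).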

How the data were processed

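Per the study's methods, the authors mapped Hi-ChIP read pairs to mm10 (GRCm38 in the submitters' processing notes) with HiC-Pro 3.1.0 at default settings, assigned them to DpnII fragments, removed duplicates and called loops with hichipper. The minimum of read pairs per loop, the source of the anchors and how the 2 samples of a group were joined are not given in the sources used here. The deposited lists hold, per loop, 2 anchors, a value between 0 and 20 that the file does not name and that was read from its range as −log10 of an adjusted p, and a display score derived from it by the authors. No count of read pairs per loop was used, so depth is unknown.

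Anchors were matched to all annotated starts (GENCODE M21) within 2 kb. Loops at other coding starts were the comparator: counted once for ratios, and once from each coding end for shares, as a gene's loops are seen from its own start. Ratios carry Woolf or exact intervals, shares Wilson and differences Newcombe intervals, all 95%. Genes were called at a fold of 1.5 with 1 added to each count and at least 10 loops in the 2 lists. No test between groups was run. Named genes were the 12 with the most loops, the 3 highest and 3 lowest ratios per comparison, and the 3 without an anchor; loops named were the 10 with the highest summed values, all joining 2 of the genes, and for the 6 genes with the most loops those in all 4 lists with the highest lowest value. Others named were chosen after their values were seen. Genes and lists were chosen with earlier results of these data known. The counting was tested on simulated data. Python 3.11.15, numpy 2.4.6, scipy 1.17.1 and pandas 2.3.3 were used.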

Additional observations from a re-analysis of the deposited data

Results flagged for a closer look

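Fasn was the only gene of the 17 compared for both factors that was called with HNF4G between lines while its FOXA1 number stood on the other side of 1. HNF4G loops numbered 63 in the tumor line and 39 in liver mets, and FOXA1 loops 61 and 73. Scaled to all loops at coding starts, the FOXA1 ratio was 1.015 (0.712 to 1.45), so the FOXA1 number did no more than follow the size of its lists and lies on the other side of 1 by a margin far inside its interval. The scaled HNF4G ratio over the scaled FOXA1 ratio was 0.626 (95% Woolf interval 0.370 to 1.06). The interval includes 1, it covers counting error only, and with 1 list per group the difference between factors was not tested. None of the 17 such intervals left out 1.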

How the results depend on the processing

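Of 156 alternative values for 28 results, 114 stayed the same, 41 moved and 1 reversed. A change of sign alone was not counted as reversed. No paired analysis was possible because each group has 1 loop list, and leaving out a replicate was not possible for the same reason. Without scaling to other coding starts, the ratios were 1.18 for FOXA1 between lines, 1.15 between factors in the tumor line and 1.40 in liver mets. With values of 4 or more, which kept 2 to 8 loops per list, the 3 ratios were 1.65, 1.31 and 2.05. Values of 2 or more gave a median of 0, 1, 0 and 0 loops per gene (FOXA1 tumor, FOXA1 liver mets, HNF4G tumor, HNF4G liver mets), and values of 4 or more gave 0 in each. Loops of 100 kb or more then made up 83.3%, 88.2%, 81.8% and 85.7% at 2 or more, and 100%, 87.5%, 100% and 100% at 4 or more. The shared percentage of the smaller list was 12.5 (FOXA1 between lines), 14.3 (HNF4G between lines) and 4.76 (factors in liver mets) at 2 or more, and 0 in all 4 comparisons at 4 or more. Anchors widened by 5 kb gave 58.9, 46.4, 56.4 and 55.6. Anchors of these genes alone gave a FOXA1 tumor median of 2. At a fold of 2, 2 genes were called for HNF4G between lines and 1 between factors in liver mets. With 20 loops summed, 3 were called for HNF4G between lines and 1 between factors in the tumor line. With other loops counted once, chosen after seeing the data, the difference in partners at coding starts was 15.8, 18.6, 13.7 and 8.43 points. Counted from each coding end it was −0.988, 1.99, −3.29 and −8.48, so the sign turned in all but the FOXA1 liver mets list. Only the last was counted as reversed. Counted once, a loop between 2 coding starts enters once where these genes' loops enter from their own end, which is how that setting is built. The cause of the other changes was not tested.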
